A study of Mus musculus with 16 samples.

Results

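Myotubes from 8 of the 16 RNA-seq libraries were compared between the culture replicates that the labels call BR1 and BR2, here round 1 and round 2. All 8 were C2C12 cells, an established mouse myoblast line labelled PAX7 negative, kept in high-glucose medium with 20% fetal bovine serum and then switched to 2% horse serum for 3 days (DM3). Each round held 4 of these libraries: wild-type control populations 1 and 2, and clones 1 and 2 in which miR-206 was knocked out together with miR-1a-2 and miR-1a-1 (tKO, triple knockout). The members were all the DM3 libraries, 4 of round 1 and 4 of round 2, and genotype entered the comparison as a covariate. The other 8 libraries were the same 4 lines in growth medium (GM) at about 80% confluency, again 4 per round, and served as the undifferentiated reference. Each genotype was represented by 2 lines of 1 parental cell line, so the results describe those populations and clones. The labels do not say what separated the rounds, and culture date, passage, serum lot, RNA extraction and library preparation cannot be told apart from round.

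When serum is lowered, myoblasts leave the cell cycle, switch on the myogenic factors Myod1 and Myog, fuse through the membrane proteins myomaker and myomixer, and assemble sarcomeres from myosin, actin, troponin and titin. A C2C12 culture never converts completely, because some cells stay single and undifferentiated as reserve cells. The miR-1/miR-206 family is made in muscle during this step and represses transcripts that carry matches to its seed, the bases 2 to 8 of the mature strand. The mature strand of the deleted miR-206 is shown with that seed in capitals, from RefSeq on GRCm38.p6 (chr1:20679055-20679076, plus strand), because its loss defines the tKO libraries.
mmu-miR-206-3p: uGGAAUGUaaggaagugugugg
Poly(A) libraries do not measure this strand. Its host transcript, listed as mmu-mir-133b, was at 0.293, 0.655, 0.636 and 3.4 FPKM in control DM3 and at 0.106, 0.0957, 0.395 and 0.925 FPKM in tKO DM3 (fragments per kilobase of gene, scaled to library depth, in the order round 1 line 1, round 1 line 2, round 2 line 1, round 2 line 2). The groups overlapped, and whether the deleted part lies within the transcript is not given in the sources used here, so this does not check the labels.

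Depth was 27714736 to 56585952 fragments per DM3 library, and the 10 most abundant genes took 9.61% to 11.7% of them. The deepest library was control population 1 of round 2. No 2 libraries of a genotype and stage agreed within counting noise (chi-square per degree of freedom 20.5 to 256). Across the 11832 tested genes, control populations 1 and 2 correlated better with each other within a round (r = 0.992 and 0.991) than either did with itself across rounds (r = 0.982 for both). In tKO, clone 2 correlated with itself across rounds at 0.982 and clone 1 at 0.961, against 0.961 between the clones in round 1 and 0.976 in round 2. For tKO, the 2 lowest median correlations with the other DM3 libraries, 0.961 each, belonged to clone 1 in round 1 and clone 1 in round 2. Summed histone FPKM ran from 77.9 to 494 and was highest in control population 1 of round 2. Its part in the results was not tested.

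The extent of differentiation was read first as a slope. Each DM3 library was compared with the GM mean of its genotype over both rounds. The slope is how far it had moved along the DM3 minus GM change of the other genotype. A value of 1 means as far along that change as the mean of the other genotype. Where the changes of the genotypes differ in kind, the slope is lower at an equal extent. In control, the slope was 0.914 and 0.905 in round 1 and 0.980 and 0.906 in round 2. In tKO, it was 1.06 and 0.985 in round 1 and 0.796 and 0.876 in round 2. Each genotype was measured along the change of the other, so these values compare rounds within a genotype and do not rank control against tKO. The control populations overlapped between rounds, and both tKO clones were lower in round 2. The mean slope was 0.966 in round 1 and 0.889 in round 2, a difference of −0.077 that the two-sided exact permutation test within genotype did not separate from 0 (p = 0.278, where the smallest p that 36 arrangements can give is 0.0556).

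A set of 16 mature myotube markers, of which 14 passed the filter of a mean of 0.5 FPKM, was read on 1 scale for both genotypes. Its mean log2(FPKM + 1) was 5.31 and 4.95 in control round 1 and 5.52 and 5.14 in control round 2. In tKO it was 5.85 and 5.60 in round 1 but 4.45 and 4.39 in round 2. The tKO clones thus ranged from the 2 highest to the 2 lowest of the 8 libraries, whereas the control populations overlapped between rounds. All 8 were far above GM, where the score was 0.912 to 1.23, so the label of myotubes fitted each library. In bulk RNA, fewer myotubes and less sarcomere RNA per myotube cannot be told apart. A list of 60 mitosis genes did not mirror this pattern. Its score was 3.39 and 3.32 in control round 1, 3.17 and 3.23 in control round 2, 2.25 and 3.55 in tKO round 1, and 2.84 and 3.17 in tKO round 2. The low value of tKO clone 1 in round 1 stood beside the highest myotube score, but clone 2 of that round had a high score on both lists.

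**Figure D1:**
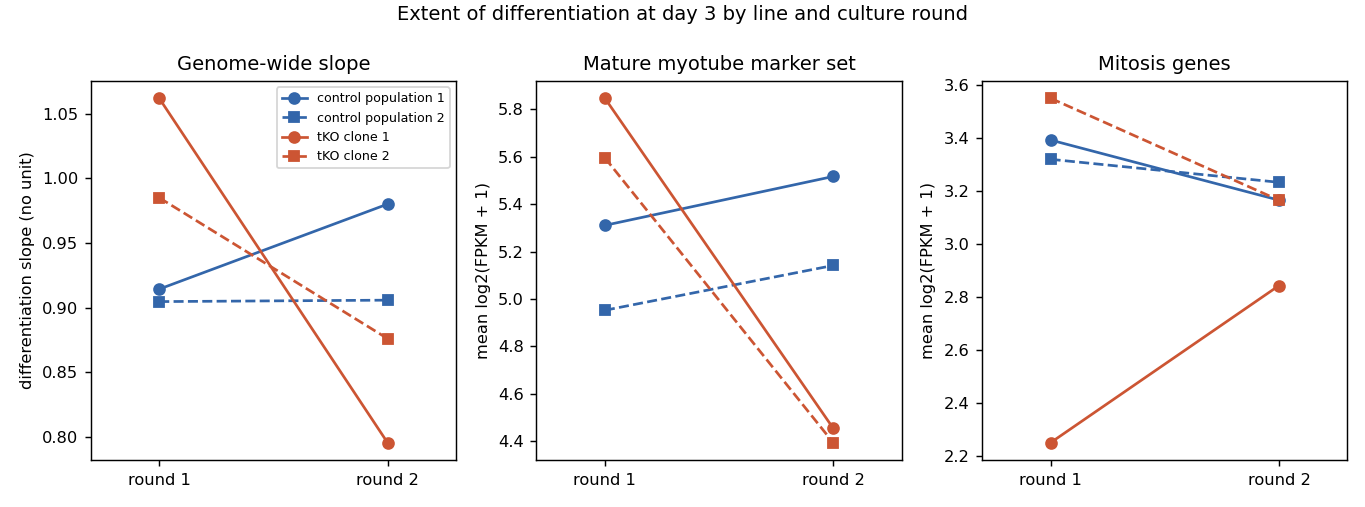
Differentiation slope, myotube marker score and mitosis score (both scores as mean log2(FPKM + 1)) for each DM3 library by round, with control in blue and tKO in red, circles for line 1 and squares for line 2. The myotube scores of both tKO clones drop from 5.85 and 5.60 to 4.45 and 4.39 between rounds, while those of both control populations are 0.19 to 0.21 higher in round 2.

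Of the 14 tested myotube markers, 13 were lower in round 2 in both tKO clones, where 23.2% of all tested genes were. In both control populations, 4 of the 14 were lower, against 27.1% of all genes, and 7 were higher, against 35.8%. Opposite directions, higher in both control populations and lower in both tKO clones, were seen for 6 of the 14, against 3.4% of all genes. The median round change of the 14 on the log2 scale was 0.28 in control and −1.24 in tKO, where the median of all tested genes was 0.04 and 0.14. No gene passed the genotype by round interaction in limma at an adjusted p of 0.05 (0 of 11832, 0%; 707 at an unadjusted p under 0.05; 66 adjusted calls without tKO clone 2 of round 1), and the adjusted p of every interaction described here was 0.682 unless given. At an unadjusted p under 0.05, 9 of the 14 markers had a lower round change in tKO than in control (8 to 11 with 1 DM3 library left out), beside 2.08% of all tested genes. None had a higher one, beside 3.9%.

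Acta1, the skeletal muscle actin of the thin filament (mm10 chr8:123891767-123894736), was at 506 and 315 FPKM in control round 1 and at 653 and 355 in control round 2. In tKO it was at 663 and 682 FPKM in round 1 and at 115 and 157 in round 2. The control populations overlapped between rounds and the tKO clones did not, being 4.95-fold lower in round 2 on group means. The interaction was −2.59 (SE 0.47, limma unadjusted p = 0.00055).

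Myh3, the embryonic myosin heavy chain that early myotubes use (chr11:67078300-67102291), was at 16.1 and 7.14 FPKM in control round 1, 14 and 13.4 in control round 2, 66.3 and 79.5 in tKO round 1, and 15.8 and 18.6 in tKO round 2. Round 1 of the tKO therefore stood apart from the other 6 libraries, while in round 2 both genotypes were at similar levels, the tKO clones slightly higher. The tKO mean was 4.24-fold lower in round 2 (interaction −2.34, SE 0.44, limma unadjusted p = 0.000701). Mylpf, the fast regulatory myosin light chain, was at 327 and 302 FPKM in control round 1, 383 and 275 in control round 2, 451 and 466 in tKO round 1, and 104 and 167 in tKO round 2. Myl1, the fast essential light chain, was higher in control round 2 (326 and 294 FPKM) than in control round 1 (229 and 177) and lower in tKO round 2 (93.6 and 117) than in tKO round 1 (193 and 257). No genotype overlapped itself between rounds for Myl1, and the directions were opposite.

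Tnnc1 and Tnni1, 2 troponin subunits of slow and developing fibres, were lower in round 2 in both tKO clones. Other slow and developmental troponins are not reported here. Tnnc1, the calcium-binding troponin C, was at 39.2 and 23.9 FPKM in control round 1, 47.4 and 35.8 in control round 2, 105 and 54.0 in tKO round 1, and 14.8 and 13.8 in tKO round 2, a 5.56-fold lower tKO mean in round 2 (interaction −2.74, SE 0.47, limma unadjusted p = 0.000399). Tnni1, an inhibitory troponin chosen after its values were seen, was at 8.33 and 6.10 FPKM in control round 1, 17.6 and 8.26 in control round 2, 15.2 and 10.2 in tKO round 1, and 1.89 and 2.86 in tKO round 2. Lmod2, which elongates thin filaments, had the smallest interaction p of all lower genes (0.000148 unadjusted, limma). It was at 1.81 and 1.12 FPKM in control round 1 and 3.50 and 3.56 in control round 2, against 4.55 and 3.87 in tKO round 1 and 0.742 and 1.49 in tKO round 2. Each genotype was separated between rounds, again in opposite directions. Tnnt3, the fast troponin T, differed less: 204 and 187 FPKM in control round 1, 259 and 223 in control round 2, 135 and 140 in tKO round 1, and 69.2 and 108 in tKO round 2. Ttn, which encodes titin, stayed between 0.598 and 1.85 FPKM in all 8 libraries, with tKO at 0.598 and 1.31 in round 1 and 1.27 and 0.931 in round 2.

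Ckm, the muscle creatine kinase, and Tmem8c, which encodes myomaker, were lower in round 2 in each of the tKO clones and not higher in any control population. Ckm was at 15.7 and 9.66 FPKM in control round 1, 15.4 and 7.86 in control round 2, 23 and 21.8 in tKO round 1, and 5.50 and 5.47 in tKO round 2. Tmem8c was at 28.0 and 28.5 FPKM in control round 1, 21.3 and 16.8 in control round 2, 33.6 and 39.4 in tKO round 1, and 11.7 and 19.1 in tKO round 2. For Tmem8c the rounds did not overlap within either genotype, and the common round change of −0.89 (SE 0.19) had a limma adjusted p of 0.0724. Gm7325, which encodes myomixer, was highest in tKO clone 1 of round 1 at 5.96 FPKM and at 0.0307 to 1.06 in the other 7 libraries. Atp2a1, the fast calcium pump of the sarcoplasmic reticulum, also chosen after its values were seen, was higher in control round 2 (70.6 and 54.5 against 51.2 and 40.6 FPKM) and lower in tKO round 2 (8.39 and 8.10 against 29.6 and 14.8 FPKM).

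**Figure D2:**
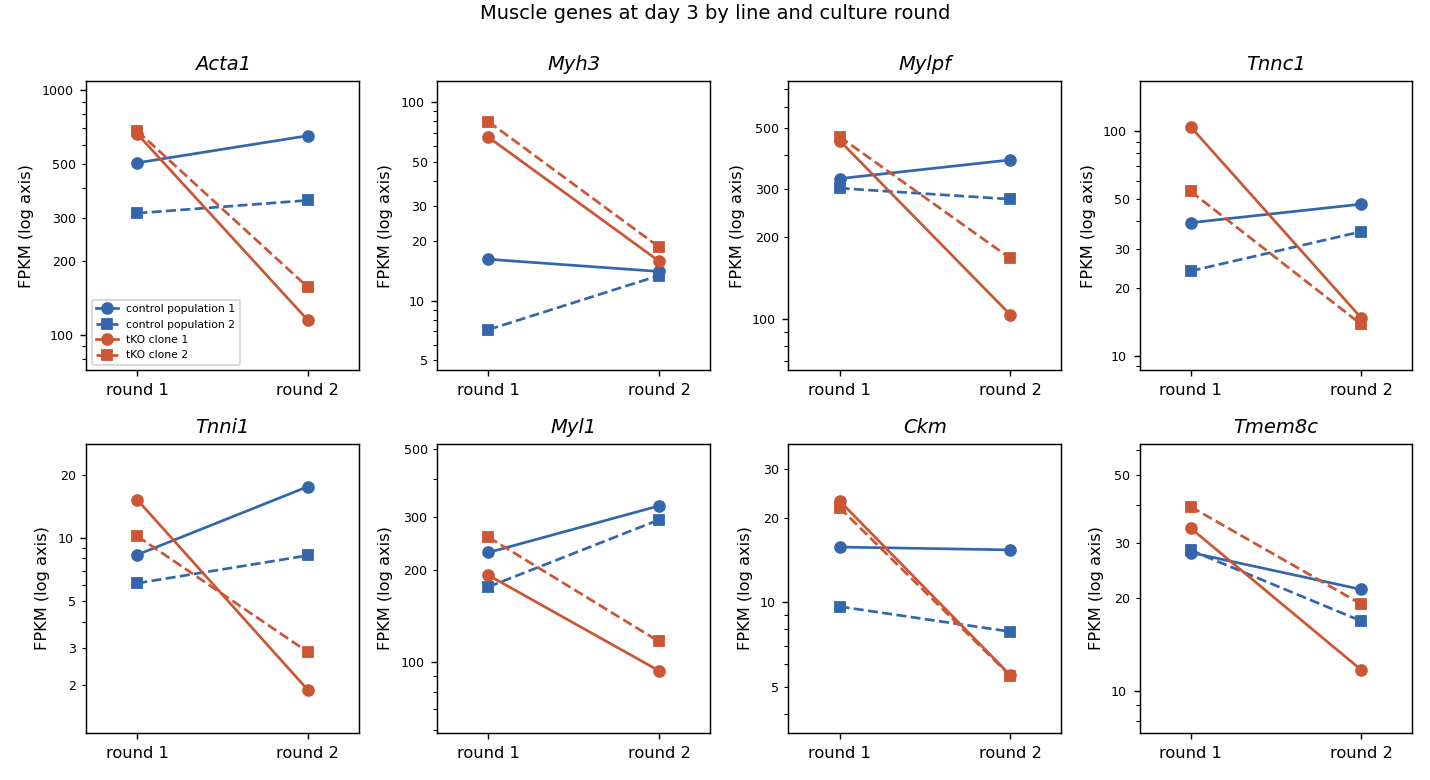
FPKM on a log axis of 8 myotube genes (Acta1, Myh3, Mylpf, Tnnc1, Tnni1, Myl1, Ckm and Tmem8c) in each DM3 library by round, control in blue and tKO in red, circles for line 1 and squares for line 2. The tKO clones are lower in round 2 in all 8 panels, and the control populations overlap between rounds in all but Myl1 and Tmem8c.

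The wider muscle lists, which share members with the marker set, had the following counts. Among 35 tested genes of the thin filament and Z-disc (51 listed), 19 were lower in round 2 in both tKO clones (23.2% of all tested genes). Going the other way, 10 were higher in both clones (47.7% of all), and 5 were higher in all 4 lines (22.7%). Opposite directions, higher in both control populations and lower in both clones, were seen for 13 (3.4% of all). Of the 35, 12 had a lower round change in tKO at an unadjusted interaction p under 0.05 (2.08% of all), and 1 had a higher one (3.9% of all). Among 17 tested thick filament genes (33 listed), 12 were lower in both clones (23.2% of all) and 5 had a lower round change in tKO at that p (2.08% of all). Of these 17, 3 had opposite directions (3.4% of all) and 4 were lower in all 4 lines (10.4% of all). Higher in both clones were 3 of the 17 (47.7% of all). The 16 that failed the filter included the adult heavy chains Myh2, Myh4 and Myh7, so the myosin result is about the embryonic chain and the light chains. The list score of the thick filament changed by 0.15 and 0.31 in control populations 1 and 2 and by −0.54 and −0.59 in tKO clones 1 and 2. For the thin filament and Z-disc, those changes were 0.10 and 0.18 in control and −0.41 and −0.43 in tKO. The score of excitation-contraction coupling genes changed by 0.05 and 0.13 in control and by −0.26 and −0.22 in tKO, with 16 of 27 lower in both clones (23.2% of all). Of the 27, 5 had opposite directions (3.4% of all) and 8 were lower in all 4 lines (10.4% of all). Another 8 were higher in both clones (47.7% of all), and 6 were higher in all 4 lines (22.7%). The median round change of the 27 in control was −0.04. Fusion and membrane repair genes (27 of 33 tested) changed by 0.03 to 0.10 in the 4 lines, and after median-of-ratios scaling by 0.01 and 0.01 in control and −0.19 and −0.10 in tKO.

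The regulators upstream of these genes had mixed directions in tKO. Of 23 tested, 9 were higher and 7 lower in round 2 in both clones (47.7% and 23.2% of all genes). Opposite directions, higher in both control populations and lower in both clones, were seen for 3 (3.4% of all). Myog and Myod1 were lower in round 2 in each clone, by less than the clones differed from each other. Myog, the factor that commits myoblasts to differentiate, was at 4.19 and 2.35 FPKM in control round 1, 8.65 and 8.65 in control round 2, 20.4 and 8.23 in tKO round 1, and 19.3 and 3.89 in tKO round 2. Control was higher in round 2 without overlap, and the tKO values followed the clone more than the round. Myod1 was at 1.40 and 0.746 FPKM in control round 1, 2.75 and 2.72 in control round 2, 3.41 and 1.63 in tKO round 1, and 2.72 and 1.61 in tKO round 2. Myf5, the factor of undifferentiated myoblasts, was at 10 and 8.94 FPKM in tKO round 1 and at 27.2 and 22.0 in tKO round 2, while control overlapped (20.3 and 15.5 against 13.2 and 26.4). Cdkn1a, the inhibitor that holds myotubes out of the cell cycle, was at 438 and 484 FPKM in control round 1, 474 and 404 in control round 2, 362 and 461 in tKO round 1, and 281 and 396 in tKO round 2, with overlap in both genotypes. Of the 23 tested myogenic regulators none passed the round comparison, and 3 were higher and 3 lower at an unadjusted limma p under 0.05, beside 16.4% and 5.82% of all tested genes. The Id proteins bind E proteins and so hold back Myod1. Id3 was higher in round 2 in all 4 lines (28.7 and 27.7 to 53.0 and 67.0 FPKM in control, 16.6 and 5.36 to 40.3 and 17.2 in tKO), with a round change of 1.21 (SE 0.34, limma adjusted p = 0.102).

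The contrast between the genotypes held in part for genes chosen by their behaviour in the other genotype. The 176 genes at least 2 log2 units higher in DM3 than in GM in control had a median round change of −0.29 in tKO, and 52.3% of them were lower in both clones, against 23.2% of all genes. The 205 genes at least 2 log2 units lower in control DM3 had a median of 0.42 in tKO, and 65.4% were higher in both clones, against 47.7%. Read the other way, the 196 genes at least 2 log2 units higher in tKO DM3 than in tKO GM had a median round change of 0.21 in control, with 51.5% higher in both populations, against 35.8%. The 206 genes lower by as much in tKO DM3 had a median of 0.03 in control, near the 0.04 of all genes. Of these 206, 33.0% were higher and 36.4% lower in both populations, against 35.8% and 27.1%. Neither reading shares a library between the choice of genes and the values.

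With genotype as a covariate, 43 of 11832 genes differed between the rounds at a limma adjusted p under 0.05 (0.363%), 35 higher in round 2 (0.296%) and 8 lower (0.0676%). At an unadjusted p under 0.05 there were 2624, of which 1935 were higher (16.4%) and 689 lower (5.82%). All 43 moved the same way in all 4 lines, where 22.7% of all tested genes were higher in all 4 and 10.4% lower. None of the 43 had an interaction with genotype at an unadjusted p under 0.05. The fit that chose the 43 counts differences between lines and genotypes in the round change as error. Both facts therefore follow largely from that choice and are no separate evidence. The 2 lines of a genotype recur in both rounds, and with line as a block only Rbm3 and Cxcl5 remained, at a limma adjusted p of 0.0391 each, while the other 41 were at 0.0585 to 0.0702. Leaving out 1 library gave 544 genes without tKO clone 1 of round 1, 422 without control population 1 of round 2, 45 without tKO clone 1 of round 2, and 2 without any one of the other 5. Median-of-ratios scaling, which moved the median round change of all genes from 0.09 to −0.02, called 52, split 24 higher and 28 lower, and quantile normalization called 34, split 24 and 10. Within genotype, 1 gene passed in control (Rbm3, 0.00845%; 1147 at an unadjusted p under 0.05) and 0 in tKO (0%; 2635 at an unadjusted p under 0.05; 17 with line as a block). The control call was lost without any one of the 4 control libraries, 80 and 77 genes passed in control without tKO clone 1 or clone 2 of round 1, and 2 without either tKO clone of round 2. In tKO, 2399 genes passed without clone 2 of round 1 and 8 without clone 1 of round 1.

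Rbm3 and Cxcl5 had the smallest adjusted p. Rbm3, an RNA-binding protein known to be induced by mild cold (chrX:8138975-8145880), was at 147 and 129 FPKM in control round 1, 42.6 and 37.8 in control round 2, 117 and 118 in tKO round 1, and 47.7 and 43.1 in tKO round 2. Every library of round 1 was above every library of round 2, with means of 128 ± 13.7 and 42.8 ± 4.06 FPKM (SD, n = 4 each). Rbm3 fell by 1.56 on the log2 scale (SE 0.11, limma adjusted p = 0.00218), a 2.99-fold lower mean. In GM it was at 206 to 267 FPKM, with a round change of opposite sign that was not called (0.26, SE 0.07, limma adjusted p = 0.102). The stage by round interaction for Rbm3, which holds both changes, was −1.82 (limma adjusted p = 1.87e-05). Cirbp, the other well-known cold-induced RNA-binding protein, chosen after its values were seen, was at 13.5, 16.7, 16.4 and 12.8 FPKM in round 1 and at 13.7, 15.6, 13.3 and 14.7 in round 2. Its round change was −0.04 (SE 0.12, limma adjusted p = 0.852).

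Heat shock proteins, which refold damaged proteins and are driven by HSF1, moved the other way in part. Hsph1 (HSP110) was at 8.69 and 7.97 FPKM in control round 1, 16.0 and 19.5 in control round 2, 6.33 and 7.07 in tKO round 1, and 19.9 and 20.2 in tKO round 2. All round 2 libraries lay above all of round 1, and Hsph1 rose by 1.23 (SE 0.13, limma adjusted p = 0.0169, 0.0622 with line as a block). Hspa1b, an inducible HSP70 with a near-identical copy (Hspa1a) that can share its reads, was at 1.71 and 1.77 FPKM in control round 1, 3.22 and 5.61 in control round 2, 1.67 and 1.65 in tKO round 1, and 4.86 and 6.06 in tKO round 2. It rose by 1.11 (SE 0.17, limma adjusted p = 0.0414, 0.0622 with the block). In GM, Hspa1b was at 13.8 to 26.7 FPKM, so every DM3 value was below GM. Chaperones chosen after their values were seen gave no call: Dnaja1 changed by 0.69 (limma adjusted p = 0.0822), Hspa8 by 0.36 (0.151) and Dnajb1 by 0.15 (0.479). The promoters of the called pair are shown with their match to the heat shock letters GAANNTTC in capitals, RefSeq windows around an annotated start on GRCm38.p6, for Hsph1 chr5:149636287-149636586 (minus strand) and for Hspa1b chr17:34959189-34959488 (minus strand).
Hsph1: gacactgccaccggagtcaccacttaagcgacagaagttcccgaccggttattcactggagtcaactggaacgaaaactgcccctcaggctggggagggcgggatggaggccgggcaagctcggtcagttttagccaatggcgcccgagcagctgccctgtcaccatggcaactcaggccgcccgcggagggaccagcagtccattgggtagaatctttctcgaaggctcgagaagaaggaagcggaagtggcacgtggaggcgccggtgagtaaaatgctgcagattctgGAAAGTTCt
Hspa1b: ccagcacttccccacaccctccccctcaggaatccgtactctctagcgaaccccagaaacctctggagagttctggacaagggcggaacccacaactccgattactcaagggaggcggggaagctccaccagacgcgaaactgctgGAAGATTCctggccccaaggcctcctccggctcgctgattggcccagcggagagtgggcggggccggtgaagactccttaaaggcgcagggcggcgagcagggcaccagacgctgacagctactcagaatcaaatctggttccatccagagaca
These letters read the same on both strands and occur in 7.86% of 32851 promoters of this length. Among the 43 called genes, 33 had a promoter in the table, and 8 of their 50 promoters held a match (16.0%), from 7 genes. A match is a run of letters and not a measured site.

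**Figure D3:**
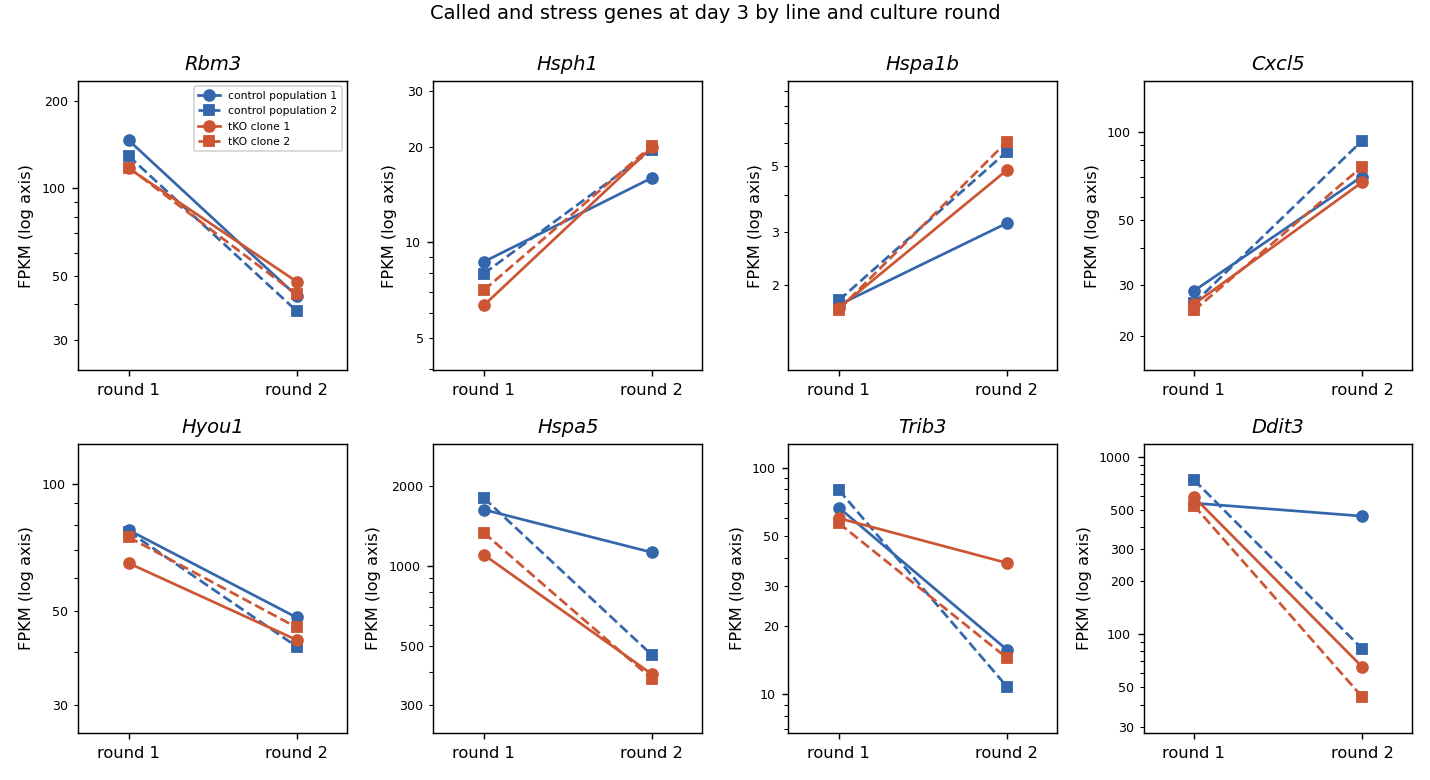
FPKM on a log axis of Rbm3, Hsph1, Hspa1b, Cxcl5, Hyou1, Hspa5, Trib3 and Ddit3 in each DM3 library by round, control in blue and tKO in red, circles for line 1 and squares for line 2. The rounds do not overlap in any of the genes except Hspa5, where control population 1 of round 2 (1126 FPKM) lies above tKO clone 1 of round 1 (1103 FPKM).

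The other calls came from several functions. Cxcl5, a neutrophil-attracting chemokine, was at 28.6 and 25.9 FPKM in control round 1, 70.3 and 93.2 in control round 2, 25.7 and 24.5 in tKO round 1, and 67.2 and 76.0 in tKO round 2, and it rose by 1.50 (SE 0.11, limma adjusted p = 0.00218). Slc1a3, a glutamate transporter, was at 1.00 and 1.19 FPKM in control round 1, 3.73 and 6.33 in control round 2, 0.421 and 0.130 in tKO round 1, and 3.34 and 1.88 in tKO round 2 (1.49, SE 0.19, limma adjusted p = 0.031). Spp1, the secreted matrix protein osteopontin, was at 207 and 239 FPKM in control round 1, 500 and 441 in control round 2, 141 and 109 in tKO round 1, and 201 and 204 in tKO round 2 (0.89, SE 0.13, limma adjusted p = 0.0414). Ogt, which attaches O-GlcNAc to proteins, was at 7.77 and 8.27 FPKM in control round 1, 14.1 and 18.3 in control round 2, 11.2 and 10.4 in tKO round 1, and 27.2 and 26.3 in tKO round 2 (1.08, SE 0.12, limma adjusted p = 0.0212). For each of these 4 genes the rounds were separated within both genotypes, although Spp1 in control round 1 was as high as in tKO round 2.

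Among the 8 genes that fell, Tubb2b, a tubulin, was at 422 and 354 FPKM in control round 1, 254 and 212 in control round 2, 291 and 307 in tKO round 1, and 164 and 150 in tKO round 2 (−0.83, SE 0.12, limma adjusted p = 0.0344). Vars, a valyl-tRNA synthetase, was at 77.9 to 99.4 FPKM in round 1 and at 51.9 to 60.5 in round 2 (−0.67, SE 0.10, limma adjusted p = 0.0414). Pck2, the mitochondrial PEP carboxykinase, was at 93.6 to 103 FPKM in round 1 and at 55.1 to 73.5 in round 2 (−0.62, SE 0.09, limma adjusted p = 0.0414). Mnd1, a meiotic recombination factor, and Strn4, a phosphatase subunit, also fell (−0.78 and −0.70). The largest rise belonged to Gm5039, a predicted gene at 0.963 to 3.01 FPKM in round 1 and 6.78 to 13.4 in round 2 (1.72, SE 0.20, limma adjusted p = 0.0212), which may share reads with copies elsewhere. Hist1h4i, a histone H4 gene of a repeated family, was at 1.39 to 2.85 FPKM in round 1 and 5.88 to 13.2 in round 2 (1.49, SE 0.19, limma adjusted p = 0.031). Its level moved with the summed histone FPKM in control but not in tKO clone 1, where the sum was 210 in round 1 and 148 in round 2. Pomgnt2, Mturn and Zfp62 rose by 1.05, 1.06 and 1.04. Ccng2, an unusual cyclin of arrested cells, and Prrx1, a mesenchymal homeobox factor, were chosen after their values were seen and rose by 0.89 (limma adjusted p = 0.0296) and 0.91 (limma adjusted p = 0.0312).

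The mean level of genes of the integrated stress response (ISR) and the unfolded protein response (UPR) was lower in round 2 in all 4 lines. In the ISR, stress kinases slow translation and raise the factor Atf4, which drives amino acid genes and Ddit3, Trib3 and Chac1. In the UPR, chaperones of the endoplasmic reticulum (ER) such as Hspa5 are induced. Both run in differentiating myoblasts. The mean log2(FPKM + 1) of the list was 5.95 and 6.18 in control round 1, 5.44 and 5.16 in control round 2, 5.89 and 5.95 in tKO round 1, and 5.61 and 5.24 in tKO round 2. The rounds did not overlap within either genotype. Of 41 tested members (42 listed), 2 fell at a limma adjusted p under 0.05 (Sdf2l1 and Hyou1), and 26 were lower and 1 higher at an unadjusted p under 0.05, beside 5.82% and 16.4% of all tested genes. With 1 library left out, the 26 became 20 to 29. Below round 1 in all 4 lines were 18 of the 41, beside 10.4% of all genes, and the list median was −0.54 (−0.50 to −0.67 with 1 library left out) where that of all genes was 0.09.

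Hyou1, an ER chaperone partner, was at 77.9 and 77.2 FPKM in control round 1, 48.4 and 41.3 in control round 2, 65.0 and 74.9 in tKO round 1, and 42.8 and 45.8 in tKO round 2, and fell by 0.71 on the log2 scale (SE 0.10, limma adjusted p = 0.0339, 0.0622 with line as a block). Sdf2l1, an ER cofactor, was at 69.4 to 84.5 FPKM in round 1 and 33.7 to 46.9 in round 2 and fell by 0.83 (SE 0.13, limma adjusted p = 0.0414, 0.0673 with the block). Hspa5, the master ER chaperone BiP, was at 1631 and 1806 FPKM in control round 1, 1126 and 462 in control round 2, 1103 and 1335 in tKO round 1, and 391 and 376 in tKO round 2 (−1.45, SE 0.25, limma adjusted p = 0.0538). Control population 1 had the highest Hspa5 of the 4 round 2 libraries. The same library stood out for Ddit3, the stress factor CHOP. Ddit3 was at 547 and 740 FPKM in control round 1, 462 and 82.6 in control round 2, 592 and 531 in tKO round 1, and 65.4 and 44.3 in tKO round 2 (−2.53, SE 0.53, limma adjusted p = 0.0672). The tKO mean was 10.2-fold lower in round 2, and the clones did not overlap between rounds.

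No gene of the list passed the genotype by round interaction in limma after adjustment. Trib3, a pseudokinase that feeds back on Atf4, was at 66.6 and 79.6 FPKM in control round 1, 15.7 and 10.8 in control round 2, 59.7 and 56.8 in tKO round 1, and 37.9 and 14.5 in tKO round 2 (−1.83, SE 0.32, limma adjusted p = 0.0538). Chac1, which degrades glutathione, was at 98.9 and 127 FPKM in control round 1, 16.1 and 17.6 in control round 2, 30.0 and 81.8 in tKO round 1, and 39.2 and 16.0 in tKO round 2. It was 6.71-fold lower on control means and 2.02-fold lower on tKO means, where the clones overlapped between rounds, and the interaction was 1.71 (SE 0.70, limma unadjusted p = 0.0416). Slc7a5, an amino acid transporter chosen after its values were seen, was at 96.1 and 107 FPKM in control round 1, 26.5 and 26.9 in control round 2, 65.4 and 105 in tKO round 1, and 63.4 and 45.4 in tKO round 2 (interaction 1.27, SE 0.34, limma unadjusted p = 0.00578). Atf4 itself, also chosen afterwards, was at 212 and 274 FPKM in control round 1, 125 and 85.7 in control round 2, 141 and 207 in tKO round 1, and 157 and 88.2 in tKO round 2. Of the 41 genes, 7 had a higher and 1 a lower round change in tKO at an unadjusted interaction p under 0.05, beside 3.9% and 2.08% of all genes.

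The ISR and UPR difference was tested against that in GM. There the list score moved by −0.08 to 0.10 between rounds in the 4 lines. Of the 41 genes, 12 passed the stage by round interaction in the lower direction at a limma adjusted p under 0.05, beside 1.67% of all genes, and 1 in the higher direction, beside 4.36%. They included Ddit3 (limma adjusted p = 0.0207), Herpud1 (0.00716), Ppp1r15a (0.00812) and Hspa5 (0.0153). The promoters of 2 ISR genes are shown because the letters TGATGNAA, a core of the Atf4 response element, occur in 8 of the 42 promoters found for 38 of the 41 genes (19.0%) and in 3.97% of all promoters, both strands searched. Windows are from RefSeq on GRCm38.p6, Trib3 at chr2:152344011-152344310 (minus strand) and Chac1 at chr2:119350992-119351291 (plus strand), with the match, here on the opposite strand, in capitals.
Trib3: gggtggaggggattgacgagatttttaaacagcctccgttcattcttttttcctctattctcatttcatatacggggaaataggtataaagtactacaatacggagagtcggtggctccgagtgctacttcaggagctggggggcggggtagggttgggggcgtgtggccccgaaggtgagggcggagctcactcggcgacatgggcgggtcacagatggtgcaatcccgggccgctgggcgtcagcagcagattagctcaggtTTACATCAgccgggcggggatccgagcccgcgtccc
Chac1: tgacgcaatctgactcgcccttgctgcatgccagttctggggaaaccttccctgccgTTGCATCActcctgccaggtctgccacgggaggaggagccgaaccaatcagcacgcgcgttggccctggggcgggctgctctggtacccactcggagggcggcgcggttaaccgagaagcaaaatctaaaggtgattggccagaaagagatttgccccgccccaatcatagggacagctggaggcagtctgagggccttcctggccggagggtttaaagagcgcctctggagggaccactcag
The promoter match describes letters only, and Atf4 binding was not measured.

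The mean level of cholesterol and fatty acid synthesis genes was lower in round 2 in both control populations and higher in tKO clone 1, with no member called. Their enzymes turn acetyl-CoA into sterols and lipids, and the factors Srebf1 and Srebf2 switch them on when sterols run low. The list score was 6.02 and 6.06 in control round 1 and 5.16 and 5.43 in control round 2, whereas in tKO it was 4.93 and 5.79 in round 1 and 6.35 and 5.88 in round 2. Control was thus lower in round 2 by 0.86 and 0.63, and tKO was higher by 1.42 in clone 1. In clone 2 the change was 0.09, where the median gene changed by 0.08, and after median-of-ratios scaling it was −0.06, against 1.17 in clone 1 and −0.89 and −0.72 in control. Of 33 tested genes (34 listed), 32 were lower in both control populations (27.1% of all genes), 16 were higher in both tKO clones (47.7%, near the share of the list) and 15 did both (5.89%). The interaction was higher in tKO at an unadjusted p under 0.05 for 28 of the 33, beside 3.9% of all genes, and for 20 to 32 with 1 library left out. None passed the adjustment, and none was called between rounds over both genotypes, where the list median was −0.04.

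Hmgcs1, which makes the precursor of the sterol pathway (chr13:119690462-119708086), was at 106 and 105 FPKM in control round 1, 44.7 and 61.6 in control round 2, 24.0 and 49.2 in tKO round 1, and 169 and 92.0 in tKO round 2. It was separated between rounds in each genotype and in opposite directions, and its interaction of 2.82 (SE 0.53, limma unadjusted p = 0.000704) was the smallest p among the higher genes. Sqle, which oxidizes squalene and was chosen after its values were seen, was at 38.4 and 42.7 FPKM in control round 1, 12.9 and 19.8 in control round 2, 21.3 and 43.0 in tKO round 1, and 96.1 and 52.8 in tKO round 2. Scd2, a fatty acid desaturase, was at 404 and 706 FPKM in tKO round 1 and at 1365 and 980 in tKO round 2, and control went the other way, from 915 and 978 to 596 and 912, with neither genotype overlapping between rounds. Srebf2 itself, chosen afterwards, ranged only from 90.6 to 137 FPKM over the 8 libraries.

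In GM the same list was lower in round 2 in all 4 lines, by 0.37, 0.23, 0.76 and 0.84 in control populations 1 and 2 and tKO clones 1 and 2, and 6 of the 33 passed the GM round comparison as lower. In tKO clone 1 the sign therefore differed between stages, and no member passed the stage by round interaction. The promoter of Hmgcs1 is shown for its sterol response letters TCACNCCAC (capitals; RefSeq, GRCm38.p6, chr13:119690101-119690400, plus strand), which occur on either strand in 1.24% of all promoters.
Hmgcs1: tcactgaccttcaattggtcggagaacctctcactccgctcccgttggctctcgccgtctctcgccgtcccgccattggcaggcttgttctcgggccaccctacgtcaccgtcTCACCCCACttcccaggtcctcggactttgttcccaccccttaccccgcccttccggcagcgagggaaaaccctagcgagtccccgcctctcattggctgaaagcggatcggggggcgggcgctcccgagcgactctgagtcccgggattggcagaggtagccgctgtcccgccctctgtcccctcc
It was the only one of 28 promoters, from 23 of the 33 genes, that held these letters, so they are not a shared feature of the list in this window.

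**Figure D4:**
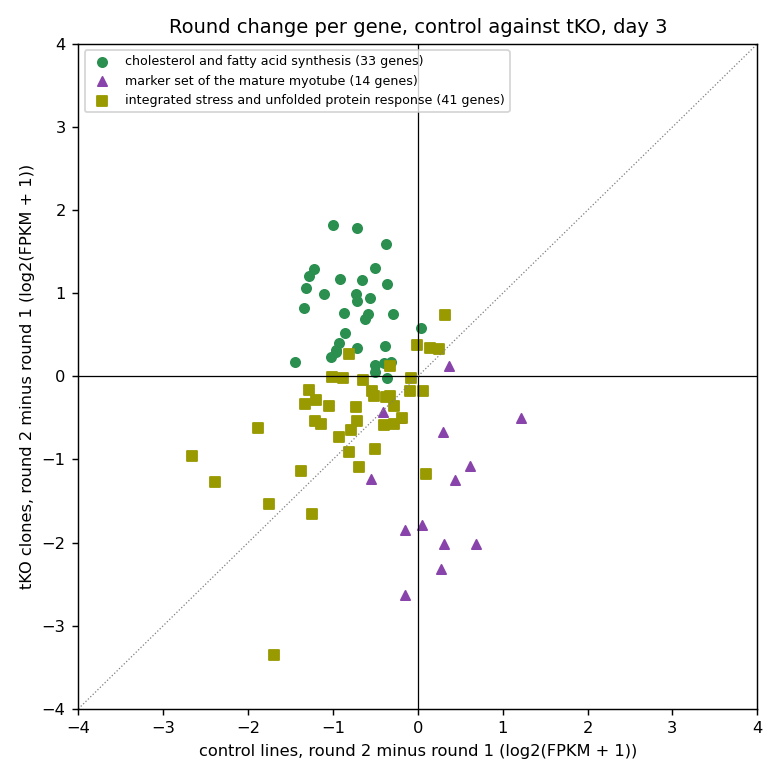
Round change (round 2 minus round 1, log2 scale) in tKO against that in control for each tested gene of the cholesterol list (33 genes), the myotube marker set (14) and the ISR and UPR list (41). Cholesterol genes lie on the side with lower control and mostly higher tKO values, myotube genes have lower tKO values with control values around 0, and stress genes are mostly lower in both.

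Transcripts of the mitochondrial genome gave no call between rounds, and the tKO clones were separated on their mean level. The list score was 6.48 and 6.95 in control round 1, 6.68 and 7.77 in control round 2, 7.04 and 7.16 in tKO round 1, and 8.38 and 8.09 in tKO round 2. Control overlapped between rounds and tKO did not. Of the 13 genes, 8 were higher at an unadjusted p under 0.05 (6 to 9 with 1 library left out, 16.4% of all genes), none was called, and 5 were higher in all 4 lines (22.7%). mt-Nd1, a subunit of complex I, was at 792 and 902 FPKM in control round 1, 772 and 2359 in control round 2, 785 and 1504 in tKO round 1, and 5253 and 3848 in tKO round 2 (1.36, SE 0.41, limma adjusted p = 0.12). mt-Co1, a subunit of complex IV, overlapped between rounds and was at 5136 to 11101 FPKM in round 1 and 7929 to 10242 in round 2. In poly(A) libraries the transcripts of this genome are captured unevenly, and their share of all fragments was 1.20% to 3.31%. Among the 77 nuclear-encoded subunits of oxidative phosphorylation there was no call. Their score changed by 0.20 and −0.18 in control and by −0.34 and −0.06 in tKO, and 50 of 77 were lower in both clones, against 23.2% of all genes. The part of this capture in the difference was not tested.

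The score of interferon response genes, which include antiviral effectors and antigen presentation, was higher in round 2 in all 4 lines, by 0.51 and 0.43 in control and 0.26 and 0.57 in tKO. Of 24 tested (40 listed), 1 was called (Ifi27, at 42.0 to 57.2 FPKM in round 1 and 62.9 to 91.9 in round 2, limma adjusted p = 0.0414), 16 were higher at an unadjusted p under 0.05 (16.4% of all genes), and 13 were higher in all 4 lines (22.7%). B2m, the light chain of MHC class I, was at 333 and 396 FPKM in control round 1, 593 and 509 in control round 2, 313 and 266 in tKO round 1, and 322 and 313 in tKO round 2, and the genotype by round difference had an unadjusted limma p of 0.0946. The GM libraries of round 2 were higher too (list median 0.46, against −0.01 for all genes), but no member was called there.

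Genes of hypoxia and glycolysis had a median of 0.20, against 0.09 for all genes, with 8 of 31 higher and 0 lower at an unadjusted p under 0.05 (16.4% and 5.82% of all) and none called. Their score changed by 0.18 and 0.24 in control and by −0.13 and 0.52 in tKO. In GM it changed by −0.20 and −0.20 in control and by −0.47 and −0.53 in tKO. The stage by round interaction holds both changes, and 6 of the 31 passed it as higher at a limma adjusted p under 0.05 (4.36% of all). Egln3, a hypoxia-induced hydroxylase, was at 6.34 to 13.3 FPKM in round 1 and 12 to 23.1 in round 2 (limma adjusted p = 0.0807). Serum response and Yap target genes were higher by 0.45 and 0.36 in control and changed by −0.43 and 0.25 in tKO, with no call. Thbs1, an adhesive matrix glycoprotein of that list, was at 298 to 375 FPKM in round 1 and 483 to 750 in round 2 in all 4 lines (0.96, SE 0.16, limma adjusted p = 0.0538). Extracellular matrix genes (43 of 49 tested) had a score of 6.40 and 6.37 in control round 1, 6.73 and 6.66 in control round 2, 6.32 and 6.32 in tKO round 1, and 6.26 and 6.51 in tKO round 2. Control was higher in round 2 without overlap and tKO overlapped. Of the 43, 34 were higher in both control populations (35.8% of all genes) and 13 in all 4 lines (22.7%), while 9 were higher and 2 lower at an unadjusted p under 0.05 (16.4% and 5.82%) and none was called. Collagen Col1a1 overlapped between rounds (1037 to 1811 FPKM in round 1, 692 to 1391 in round 2).

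Genes of the undifferentiated and reserve cell state were read beside the myotube markers. Their score was 3.51 and 3.49 in control round 1, 3.77 and 3.87 in control round 2, 3.57 and 3.36 in tKO round 1, and 3.61 and 3.67 in tKO round 2. All libraries of round 2 lay above all of round 1, and the change by line was 0.25 and 0.38 in control and 0.04 and 0.31 in tKO. After median-of-ratios scaling the tKO changes were −0.19 in clone 1 and 0.18 in clone 2, and those of control were 0.23 and 0.29. Of the 34 tested genes (47 listed), 22 were higher in both control populations (35.8% of all genes) and 14 in both clones (47.7%). At an unadjusted p under 0.05, 9 were higher and 2 lower, against 16.4% and 5.82% of all genes, with a median of 0.23 and no call. In control this score and the myotube score were thus both higher in round 2 in each population.

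Markers of other cell types were read beside the myotube result. Endothelial and leukocyte markers were close to absent. Of 16 listed and 15 in the table, 3 passed the filter: Cd68, Lyz2 and Hba-a1, a globin gene that marks neither cell type. Pecam1, Cdh5 and Ptprc stayed below 0.2 FPKM in every library. The summed FPKM of the 3 tested genes was 3.29 to 11.8 in round 1 and 5.62 to 16.9 in round 2. Fibroblast markers had 9 of 15 tested, with 4 higher at an unadjusted p under 0.05 (16.4% of all genes), none lower (5.82%) and none called. Their score changed by 0.43 and 0.48 in control and by 0.19 and 0.52 in tKO (0.01 in clone 1 after median-of-ratios scaling), 5 of the 9 were higher in all 4 lines (22.7%) and none lower (10.4%), and they had a summed FPKM of 468 to 681 in round 1 and 581 to 662 in round 2. Ly6a, the fibroblast and progenitor antigen Sca-1, was at 49.2 and 74.6 FPKM in control round 1, 209 and 174 in control round 2, 101 and 49.0 in tKO round 1, and 103 and 147 in tKO round 2. Smooth muscle markers had 10 of 12 tested, with 5 higher at an unadjusted p under 0.05 (16.4% of all genes). Their score changed by 0.14 and 0.37 in control and by 0.63 and 0.08 in tKO (−0.06 in clone 2 after median-of-ratios scaling). The rise was not particular to DM3: in GM the score changed by 0.48 and 0.52 in control and by 1.21 and 0.89 in tKO. Synm, which links intermediate filaments to the membrane, was called (0.91, SE 0.14, limma adjusted p = 0.0414). Synm was also higher in DM3 than in GM, by 2.42 in control and 2.15 in tKO on the log2 scale. It therefore cannot be read here as a marker of another cell type. The summed FPKM of the list was 1291 to 1746 in round 1 and 1421 to 1981 in round 2, and Acta2, the smooth muscle actin, overlapped between rounds (735 to 1367 against 860 to 1500). Osteoblast and chondrocyte markers had 4 of 15 tested, among them the called Spp1. Of the 4, 3 were higher at an unadjusted p under 0.05 (16.4% of all genes) and 3 were higher in all 4 lines (22.7%). Their score changed by 0.83 and 0.47 in control and by 0.45 and 0.53 in tKO, and stayed above 0 in all 4 lines after median-of-ratios scaling. Their summed FPKM was 217 to 251 in round 1 and 457 to 519 in round 2 in control, and 119 to 152 and 215 to 217 in tKO. Adipocyte markers had 7 of 14 tested and summed FPKM of 24.6 to 28.6 and 23.5 to 33.5, with Adipoq and Plin1 below 0.1 FPKM. The part of these cell states in the round differences was not tested.

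**Figure D5:**
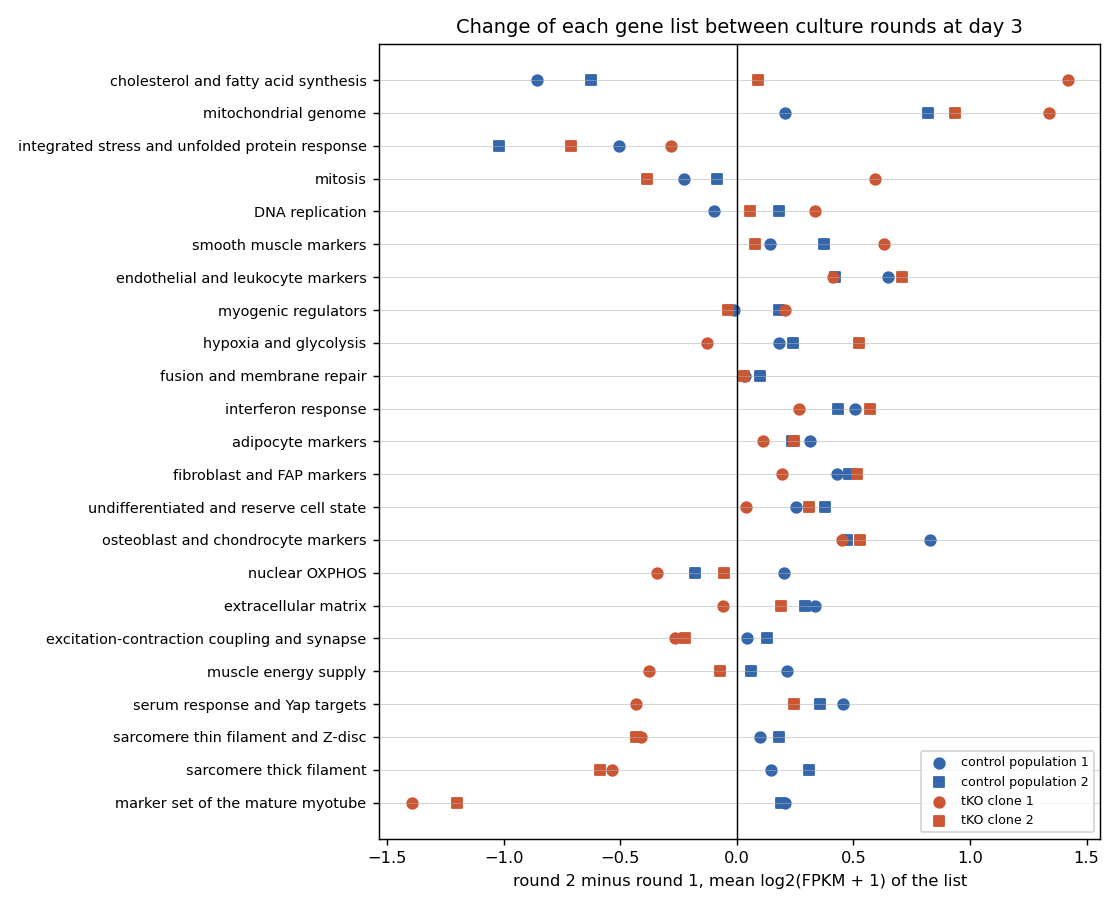
Change of each gene list score between rounds (round 2 minus round 1, mean log2(FPKM + 1)) for 23 lists and 4 lines at DM3, control in blue and tKO in red, circles for line 1 and squares for line 2. The ISR and UPR list is below 0 in all 4 lines, and 9 lists are above 0 in all 4: mitochondrial genome, interferon, reserve cell state, fusion and the markers of fibroblasts, adipocytes, osteoblasts and chondrocytes, smooth muscle, and endothelium and leukocytes. The myotube list has control and tKO on opposite sides, and after median-of-ratios scaling 5 of the 9 stay above 0 in all 4 lines.

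Read by genotype within each round, tKO and control differed in 39 genes in round 1 (0.33%; 14 higher and 25 lower in tKO) and in 60 genes in round 2 (0.507%; 17 higher and 43 lower), at a limma adjusted p under 0.05. Both counts rested on single libraries: leaving out 1 gave 3 (without control population 2 of round 1) to 992 (without tKO clone 2 of round 1) for round 1, and 2 (without control population 1 or 2 of round 2) to 355 (without tKO clone 2 of round 1) for round 2. The order of the genotypes depended on the round for Acta1 and Tnnc1, where tKO was above control in round 1 and below it in round 2. For Atp2a1 and Tnnt3 tKO was below control in both rounds.

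In GM, 209 genes differed between rounds (1.77%; 98 higher and 111 lower in round 2), and 2 of the 43 DM3 genes were among them. That count was 89 without control population 1 of round 2, 20 to 26 without tKO clone 1 or 2 of round 1 or clone 1 of round 2, and 0 without any one of the other 4 GM libraries. List scores moved between rounds in GM too. The mitosis score changed by −0.04 and −0.08 in control and by −0.70 and −0.95 in tKO. The score of serum response and Yap targets changed by 0.11 and 0.29 in control and by 0.90 and 0.68 in tKO. The part of these GM differences in the DM3 results was not tested. The round difference depended on the stage for 714 genes in the stage by round interaction (6.03%; 516 higher at DM3 than in GM, 4.36%, and 198 lower, 1.67%), including 31 of the 43. With 1 library left out the 714 became 163 (without DM3 control population 2 of round 2) to 1393 (without DM3 control population 1 of round 2), and with median-of-ratios scaling the split was 308 higher and 502 lower. Gas1, a growth arrest gene, led the higher side. It was at 41.9 and 44.1 FPKM in control round 1 DM3, 45.2 and 85.2 in control round 2 DM3, 28.3 and 33.1 in tKO round 1 DM3, and 87.1 and 90.6 in tKO round 2 DM3. In GM it went the other way, from 142 and 135 to 107 and 92.6 in control and from 87.0 and 95.1 to 12.5 and 27.3 in tKO (stage by round 2.37, limma adjusted p = 0.0176).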

How the data were processed

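Expression was deposited as FPKM (fragments per kilobase of gene, scaled to library depth), with 1 column for each library beside gene lengths and positions. The submitters' processing notes name STAR, DESeq and the build mm10, without versions; the annotation, the strand setting and the program that made the FPKM are not given in the sources used here, so overlapping, antisense and near-identical genes are uncertain. Columns were matched to samples by the name in each sample's description, and none was left unmapped. FPKM times gene length gave whole fragments for 100% of values above 0 (tolerance 0.05), which voom used in an alternative.

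Genes with a mean of at least 0.5 FPKM over the 16 libraries were kept (11832 of 35275). log2(FPKM + 1) was modelled in R 4.3.3 with limma 3.58.1 (trend and robust moderation, Benjamini-Hochberg adjustment over all tested genes). The round comparison was additive with genotype, with 5 residual degrees of freedom; contrasts within genotype, their interaction and genotype within round used 4 group means with 4, and stage by round used all 16 libraries with 10. This scale understates changes of low genes. Standard errors are those of the fit. Scores are means of log2(FPKM + 1) over the tested genes of a list. Fold changes are ratios of mean FPKM. The slope was tested with a two-sided exact permutation of round labels within genotype. Python 3.11.15, numpy 2.4.6 and pandas 2.3.3 were used for description. Tested on simulated data for the DM3 round comparison (11832 genes, dispersion 0.02), the fit recovered 98 of 100 2-fold and 99 of 100 4-fold changes with 8 false calls (3.9% of calls). The simulated libraries held no line or library effects beyond that dispersion. These shares therefore check the calculation and do not give the recovery or the false calls to be had from the real libraries.

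The line numbers pair libraries, since the same population or clone recurs in both rounds. Across genes the difference between the 2 lines of a genotype correlated between rounds at r = −0.151 in control and 0.501 in tKO. Line as a block was therefore an alternative for contrasts between rounds, and is impossible for tKO against control. The labels do not say that BR1 and BR2 were independent beyond their name, so p-values measure the spread between these libraries, which may be technical in part.

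Genes were named by rule: up to 10 in each direction with the largest round change among calls that moved the same way in all 4 lines; up to 5 in each direction for the within-genotype and interaction fits (3 by unadjusted p where none passed); per list, the 3 most abundant members and the 2 with the largest round difference; and a fixed set of muscle, cycle and matrix genes. Some genes that these rules name are not reported here. Members and lists were chosen with earlier results of these data known. Promoter and microRNA sequences are from RefSeq on GRCm38.p6; gene positions are as the deposited table lists them.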

Additional observations from a re-analysis of the deposited data

Results flagged for a closer look

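Dixon's test was applied to 48 groups of 4 DM3 libraries (23 list scores and the slope, in each round). In 2 groups the gap of 1 library to the nearest other exceeded the critical value. Chance gives about 1 in 20 for separate groups that each come from 1 population. These groups mixed control and tKO libraries and some lists share members, so that rate does not apply directly. Both flags fell on tKO clone 1 of round 1. Its muscle energy supply score was 4.79 against 4.50 to 4.53 in the other 3, and its endothelial and leukocyte marker score was 2.28 against 1.06 to 1.26. The latter score rests on 3 tested genes, of which Hba-a1 is a globin gene.

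The round difference depended on the stage for 714 genes in limma's stage by round interaction. For 6 lists the mean score moved one way between rounds in both control populations and the other way in both tKO clones, though not every member did. The tKO minus control difference of the score change was −0.791 for the thick filament, −0.561 for the thin filament and Z-disc, −0.331 for excitation-contraction coupling, −0.361 for muscle energy supply, −1.50 for the myotube markers and 1.50 for cholesterol and fatty acid synthesis. After median-of-ratios scaling, muscle energy supply in control population 2 (−0.03) and cholesterol and fatty acid synthesis in tKO clone 2 (−0.06) turned their sign. These 6 differences of scores were not tested, and the myotube markers share members with the muscle lists.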

How the results depend on the processing

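The count of 43 genes between rounds at DM3 became 28 with a filter of 5 FPKM, 77 without trend or robust moderation, 2 with line as a replicate block, 1422 with all 16 libraries in 1 fit, 70 with voom on fragments and 28 as the mean of the 2 genotypes' effects. The other counts also moved. In control (1) there were 18 genes with no filter, 2 with 5 FPKM and 80 with all 16 libraries. In tKO (0) there were 128 with no filter, 3 with 5 FPKM, 17 with the line block and 1029 with all 16. The genotype by round interaction (0) gave 52 with no filter and 1 with all 16. tKO against control gave 16 (5 FPKM) and 128 (all 16) in round 1, and 187 (no filter), 26 (5 FPKM) and 611 (all 16) in round 2. GM rounds (209) gave 0 with no filter, 136 without moderation and 404 with all 16, and stage by round gave 263 with no filter. The line block moved no other count by over 1.5 times.

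With 1 library left out, the ranges were 2 to 544 genes between rounds, 0 to 80 in control, 0 to 2399 in tKO, 0 to 66 for the genotype interaction, 3 to 992 and 2 to 355 for tKO against control in rounds 1 and 2, 0 to 89 in GM and 163 to 1393 for stage by round. The slope difference stayed at −0.105 to −0.0552. Reversed with 1 library left out were mt-Co1 (−0.0378 to 0.407), Gm7325 (−0.712 to 0.0664), Ccnb1 (−0.581 to 0.0566), Tnnt3 (−0.323 to 0.0378) and Col1a1 (−0.368 to 0.0341). Ccnb1 was called without tKO clone 1 of round 1 (−0.581, limma adjusted p = 0.0313), and the other 4 were called under no alternative. The cause of these changes was not tested, beyond the fewer samples. Of 656 values of named genes under alternatives, 513 kept direction and call, 128 lost the call, 10 gained one and 5 reversed. Rbm3 and Cxcl5 kept their call under all 18 alternatives (limma adjusted p of 2.98e-06 to 0.0391 for Rbm3 and 0.00133 to 0.0391 for Cxcl5). List counts without each library and list medians and score changes under other scaling were added after seeing the data. With 2 libraries per genotype and round, differences within a genotype are estimated from 4 degrees of freedom, and 3 fragments on a gene of 1 kb equal 0.053 to 0.108 FPKM in the DM3 libraries, counting error only.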
